A study of Mus musculus with 6 samples.

Results

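Aminoacyl-tRNA synthetases, the enzymes that load each tRNA with its amino acid, were described here through 36 mouse genes, of which 20 encode cytosolic and 16 mitochondrial enzymes. They were taken by symbol from the expression table of the whole series, which held 23359 gene symbols, and genes whose symbol ends in 2 were counted as mitochondrial. All 36 symbols were found, each on a single row, and all 36 averaged 1 FPKM or more across the libraries, the level required for testing, which 9916 genes reached in all. FPKM are fragment numbers divided by transcript length and by library size, so levels of different genes can be set beside each other. The 6 libraries were made from polyadenylated RNA of mouse bone marrow, 3 from Gab2 -/- samples (NULL A, B and C) and 3 from Gab2 +/+ samples (WT A, B and C). Gab2 encodes a docking protein for SHP2 and phosphatidylinositol 3-kinase, and the study concerns its role in leukemic transformation by the BCR-ABL1 oncoprotein. The labels give no strain, age, culture or other allele for either group and name no animals, so every p-value is set by the spread among libraries, which may be technical.

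Each synthetase recognises an amino acid and its matching tRNAs and joins them at the cost of ATP, and the charged tRNA is then handed to an elongation factor for use at the ribosome. Mammals keep separate nuclear genes for the cytosolic and the mitochondrial enzyme of most amino acids, whereas Gars and Kars each supply both compartments. In the cytosol several synthetases sit together in a multi-synthetase complex held by the scaffold proteins AIMP1, AIMP2 and EEF1E1. Charging capacity matters most in growing cells, uncharged tRNA is sensed by the kinase GCN2 (Eif2ak4), and synthetase genes are known targets of the transcription factors ATF4 and MYC.

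Across the series depth as inferred from the spacing of the lowest FPKM values was roughly 23.4 to 67.6 M fragments in NULL and 17.8 to 53.7 M in WT. Gab2 measured 0.123, 0.145 and 0.203 FPKM in the NULL libraries, against 3.33, 3.10 and 2.43 FPKM in the WT libraries, and the groups did not overlap (exact two-sided permutation p = 0.1, the smallest that 3 against 3 allow). In limma, 65.3% of tested genes passed an adjusted p of 0.05, 42.0% lower and 23.3% higher in NULL. Over all tested genes the log2 change had a median of -0.13 on the deposited scale, and every change below stands against that shift. Lower genes made up 64.3% of the calls as deposited, 53.7% after quantile normalization, 50.8% after median-of-ratios rescaling and 52.1% after an adjustment for GC content. They made up 33.1% after rescaling to a common total and 33.7% when small RNA genes were left out of that total. All 8 B-lineage markers were tested, 6 higher and 1 lower in NULL, with a summed level of 3022 to 3180.2 FPKM in NULL, against 2012 to 2210.2 FPKM in WT. Their part in the results on the synthetases was not tested. Transcripts that define other marrow cells were scarce: all 6 neutrophil markers stayed under 0.1 FPKM in every library, with Elane, S100a8 and S100a9 listed at 0 throughout. The summed erythroid markers ran from 0.014 to 0.14 FPKM in NULL and from 7.45 to 58.8 FPKM in WT, where nearly all of it was Hbb-b1. The monocyte markers, mostly Lyz2, summed to 2.46 to 3.67 FPKM in NULL libraries, against 0.27 to 0.57 FPKM in WT libraries.

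The cytosolic synthetase genes were lower in NULL as a group, whereas the mitochondrial genes were called lower about as often as all tested genes. All 20 cytosolic genes fell on the deposited scale, although Wars turned to a positive change under quantile normalization and under both common totals, and 19 of the 20 had no overlap between the groups. Of the 16 mitochondrial genes, 7 fell, close to the 42.0% of all tested genes, 0 rose and 9 did not pass the test. Together, 27 of 36 genes fell, against 42.0% of all tested genes, and 0 rose, against 23.3% of all tested genes. The groups did not overlap, with NULL lower, for 27 of the 36 genes, against 45.1% of tested genes, and for none of them with NULL higher, against 26.0%. For the mitochondrial genes alone it was 8 of 16 with NULL lower, close to that 45.1%. A fall of at least 0.8 on the log2(FPKM + 1) scale was seen in 10 of the 20 cytosolic and 1 of the 16 mitochondrial genes, against 11.6% of tested genes. That scale understates changes of weak genes, which weighs more on the mitochondrial genes. Rars2 and Iars2 missed the mark at 55.9% and 57.4% of the WT mean, as did the cytosolic Yars at 56.2%. The cytosolic Nars passed it at 55.6%. The median log2 change was -0.82 over the cytosolic genes and -0.26 over the mitochondrial genes, the second turning to 0.035 under the common total without small RNA genes. In bulk RNA, fewer cells of a type and less RNA per cell cannot be told apart, which holds for every difference given here.

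Summed over the 20 cytosolic genes, the NULL libraries read 669.5, 585 and 664 FPKM, against 1065, 1105 and 1156 FPKM in the WT libraries. The NULL mean of this sum was 57.7% of the WT mean, and each NULL library lay far under each WT library. Over the 16 mitochondrial genes the sums were 124, 123 and 114 FPKM in NULL, against 163, 179 and 171 FPKM in WT, which put NULL at 70.4% of WT. The cytosolic sum was 5.39, 4.76 and 5.83 times the mitochondrial sum in NULL A, B and C, against 6.55, 6.16 and 6.76 times in WT A, B and C. Neither sum overlapped between the groups, and the ratio between them was lower in every NULL library than in any WT library. This ratio is unchanged by a factor per library, though not by quantile normalization, and it carries no p-value because the genes were chosen with earlier results known.

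**Figure D1:**
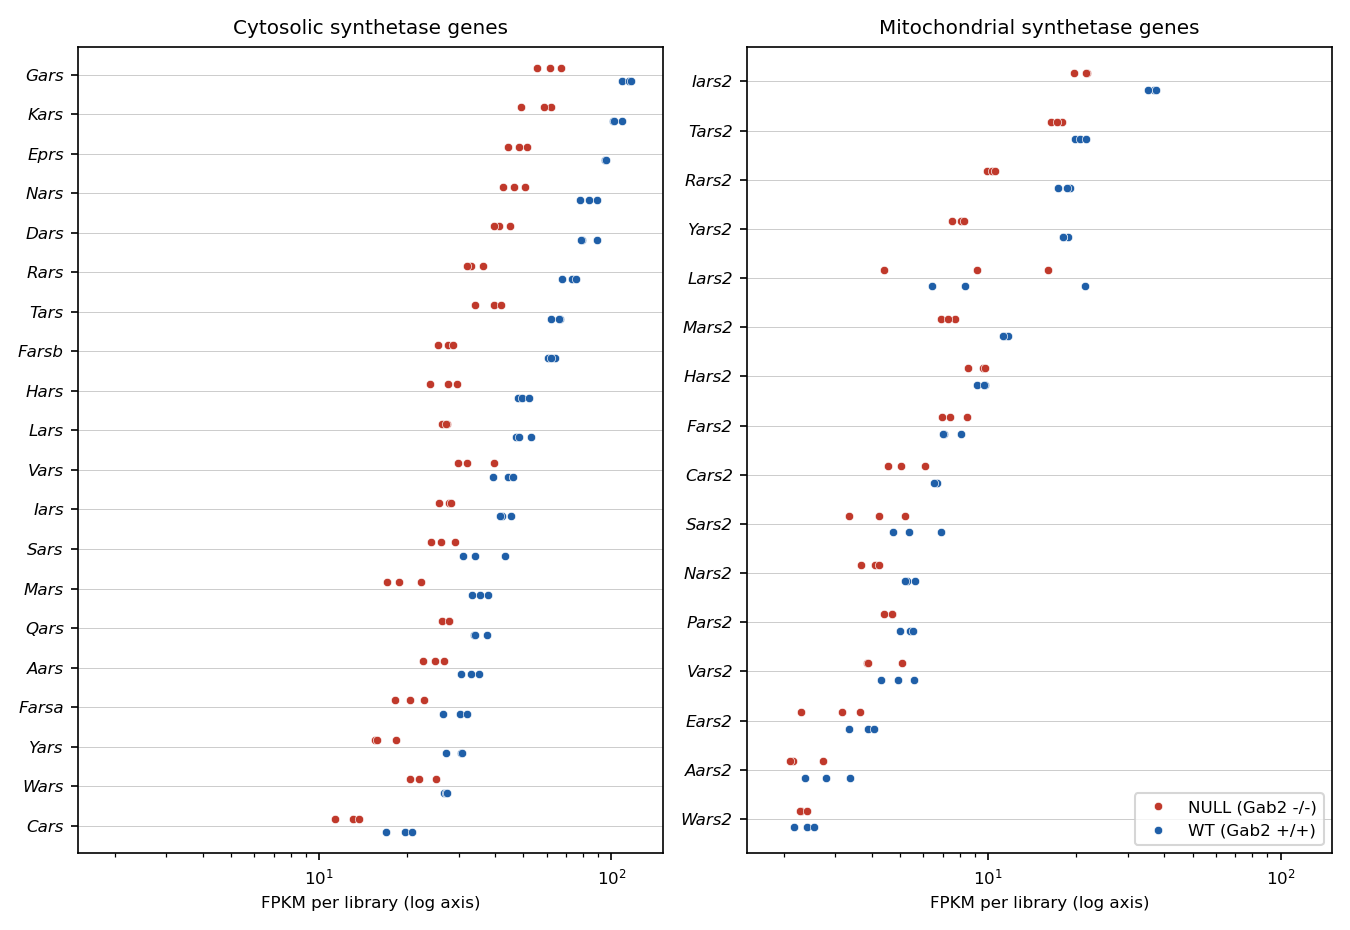
FPKM of each of the 36 synthetase genes in every library on a log axis, cytosolic genes on the left and mitochondrial genes on the right, with NULL libraries in red above WT libraries in blue and genes ordered by their WT mean. Red and blue points stand apart, red lower, for 19 of 20 cytosolic genes (Vars is the exception) and for 8 of 16 mitochondrial genes. Of all tested genes 45.1% stand apart in that direction. Lars2 is spread widely within both groups.

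Farsb, the beta subunit of the cytosolic phenylalanyl-tRNA synthetase, had the largest change of the 36 genes on the log2(FPKM + 1) scale, while its share of the WT mean equalled that of Yars2 to the precision printed. It read 27.7, 25.5 and 28.6 FPKM in the NULL libraries, against 64.4, 60.9 and 62.1 FPKM in the WT libraries. The groups lay far apart, with NULL at 43.6% of the WT mean (log2 change -1.17, SE 0.0671, limma adjusted p = 1.76e-05). Rars, the arginyl-tRNA synthetase, read 33.2, 31.9 and 36.2 FPKM in NULL, against 73.4, 75.8 and 67.6 FPKM in WT (log2 change -1.08, SE 0.0759, limma adjusted p = 3.07e-05), and every NULL library was below every WT library. Eprs encodes a fused enzyme that charges both glutamate and proline tRNAs. Its level was 48.2, 44.3 and 51.3 FPKM in NULL, against 95.2, 95.1 and 96.1 FPKM in WT (log2 change -0.98, SE 0.0716, limma adjusted p = 3.42e-05), with the 3 WT libraries almost identical. Dars, the aspartyl-tRNA synthetase, read 41.3, 39.8 and 44.9 FPKM in NULL, against 79.1, 78.7 and 89.1 FPKM in WT (log2 change -0.95, SE 0.0791, limma adjusted p = 5.25e-05). WT C was the highest of the WT libraries for Dars, and no libraries of the groups overlapped.

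Gars and Kars, the glycyl and lysyl enzymes that serve the cytosol and the mitochondria from a single gene, were the most abundant synthetase transcripts in WT. Gars read 61.4, 55.8 and 67.4 FPKM in NULL, against 109, 114 and 117 FPKM in WT (log2 change -0.87, SE 0.0835, limma adjusted p = 8.5e-05). Kars read 62.2, 49.2 and 58.7 FPKM in NULL, against 101, 102 and 109 FPKM in WT (log2 change -0.87, SE 0.0954, limma adjusted p = 0.000154). Both stood at about the same share of the WT mean in NULL, 54.3% for Gars and 54.6% for Kars, without overlap between the groups. They remained the 2 highest synthetase transcripts in NULL. Both calls were lost under the common total (limma adjusted p = 0.0769 for Gars and 0.0809 for Kars).

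A middle band of cytosolic genes changed by nearly the same amount. Hars (histidyl), Mars (methionyl), Lars (leucyl, known also as a leucine sensor for mTORC1) and Nars (asparaginyl) had log2 changes of -0.86, -0.85, -0.85 and -0.83, with limma adjusted p-values of 0.000112, 0.000234, 4.4e-05 and 0.000111. Their means in NULL were 54.5%, 54.4%, 54.5% and 55.6% of the WT means. Lars, the tightest of them in NULL, read 27.5, 26.3 and 27.1 FPKM in NULL, against 47.1, 48.2 and 53.02 FPKM in WT. The tyrosyl gene Yars, the threonyl gene Tars and the isoleucyl gene Iars fell by slightly less, with log2 changes of -0.80, -0.74 and -0.64 (limma adjusted p-values 0.000145, 0.000205 and 0.000118). All 7 genes were without overlap between the groups, and their standard errors ran from 0.0666 to 0.102. Under the common total all 7 calls were lost, with limma adjusted p-values from 0.0820 (Mars) to 0.306 (Iars).

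The remaining 7 cytosolic genes fell less. Wars, the tryptophanyl enzyme, which interferon gamma induces in human cells, read 25.1, 20.4 and 22.04 FPKM in NULL, against 26.7, 27.1 and 27.3 FPKM in WT (log2 change -0.26, SE 0.0814, limma adjusted p = 0.0240). Its WT libraries were tightly grouped and NULL A came close to them. Vars, the valyl enzyme, read 39.6, 29.9 and 32.1 FPKM in NULL, against 39.4, 44.4 and 46.01 FPKM in WT (log2 change -0.35, SE 0.113, limma adjusted p = 0.0259), and NULL A lay above WT A, so the groups overlapped. The calls of Vars and Wars were lost with a block on the replicate letter (limma adjusted p = 0.0538 and 0.0527), after median-of-ratios rescaling (0.124 and 0.240) and the 3 other rescalings, and without NULL B (0.0793 and 0.0630), NULL C (0.0821 and 0.0713) or WT B (0.0757 and 0.0662). The call of Wars was also lost without WT A (0.0552), and that of Vars without WT C (0.0656). Sars, the seryl enzyme, which also charges the selenocysteine tRNA, read 29.2, 24.2 and 26.2 FPKM in NULL, against 31.03, 34.2 and 43.2 FPKM in WT (log2 change -0.43, SE 0.127, limma adjusted p = 0.0192), WT C being the highest. Its call was lost without NULL B (adjusted p = 0.0661) or NULL C (0.0556) and under all 4 rescalings (0.0697 after median-of-ratios).

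Qars (glutaminyl), Aars (alanyl), Farsa (the catalytic alpha subunit of the phenylalanyl enzyme) and Cars (cysteinyl) had log2 changes of -0.36, -0.40, -0.51 and -0.55. Their limma adjusted p-values were 0.00217, 0.00364, 0.00296 and 0.00170, and none of the 4 overlapped between the groups. Their calls were lost under both common totals, with adjusted p-values of 0.843, 0.752, 0.516 and 0.415 in the first and 0.886, 0.506, 0.0977 and 0.0508 without small RNA genes. Those of Qars and Aars were also lost under quantile normalization (0.579 and 0.246). Qars read 27.8, 26.3 and 27.8 FPKM in NULL, against 33.9, 34.2 and 37.6 FPKM in WT, a small step between tight groups. Cars, the least abundant cytosolic gene, read 13.1, 11.3 and 13.7 FPKM in NULL, against 16.9, 19.6 and 20.7 FPKM in WT.

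**Figure D2:**
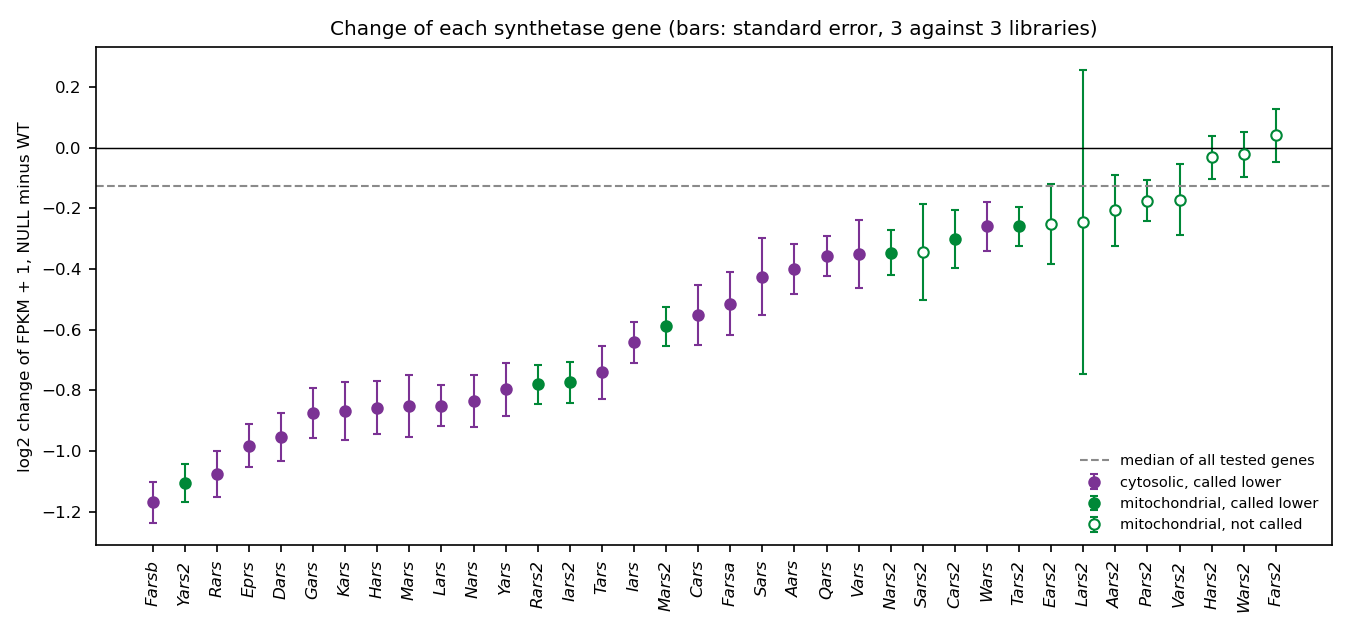
Log2 change of FPKM + 1 in NULL minus WT for the 36 genes in rank order, with bars for the standard error (3 against 3 libraries), cytosolic genes in purple and mitochondrial genes in green, filled where called lower and open where not called. All 20 purple points are filled and below the dashed line at the median of all tested genes (-0.13), although Wars changed sign under quantile normalization and both common totals, and the 9 open points are all mitochondrial.

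The 8 synthetase genes of the multi-synthetase complex (Eprs, Iars, Lars, Mars, Qars, Rars, Kars and Dars) all fell, with a median log2 change of -0.86, and Qars changed least among them. Their summed level was 281 ± 17.9 FPKM in NULL and 517 ± 15.7 FPKM in WT (SD, n = 3 each), or 54.4% of WT. The 12 cytosolic genes outside the complex also all fell, with a median of -0.65 and a sum at 60.6% of WT, though Wars among them reversed under 3 rescalings. The 3 scaffold genes of the complex fell likewise, with the same sign under all 4 rescalings. Under the common total 2 were called lower, against 10.1% of all tested genes. Aimp1 measured 38.7 ± 3.81 FPKM in NULL and 62.8 ± 0.852 FPKM in WT (SD, n = 3 each). For Aimp2 the means were 13.9 ± 2.30 FPKM in NULL and 27.4 ± 0.938 FPKM in WT, and for Eef1e1 20.8 ± 1.29 FPKM in NULL and 42.6 ± 0.680 FPKM in WT (SD, n = 3 each). Their log2 changes were -0.69, -0.94 and -1.004 (limma adjusted p-values 0.000222, 0.000207 and 2.47e-05), within the range of the synthetases they bind.

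Synthetases fall into 2 structural classes with unrelated catalytic folds. The 9 cytosolic class I genes had a median log2 change of -0.64 and the 10 class II genes -0.85, and the ranges overlapped, -1.08 to -0.26 against -1.17 to -0.40. Eprs holds a domain of each class and was left out of both counts. Among the mitochondrial genes 5 of 9 class I genes and 2 of 7 class II genes were called lower, small counts around the 42.0% of all tested genes. Their medians were -0.30 and -0.21, the class II median turning to 0.0093 and 0.079 under the common totals with and without small RNA genes, and the class I median to 0.00045 in the second of these.

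Of the mitochondrial genes, Yars2, the tyrosyl enzyme, changed most. It read 7.497, 8.06 and 8.28 FPKM in the NULL libraries, against 18.8, 17.98 and 17.98 FPKM in the WT libraries. NULL stood at 43.6% of the WT mean (log2 change -1.11, SE 0.0629, limma adjusted p = 1.72e-05), a wide gap between tight groups. Rars2, the arginyl enzyme, read 9.88, 10.3 and 10.5 FPKM in NULL, against 19.1, 18.6 and 17.3 FPKM in WT (log2 change -0.78, SE 0.0642, limma adjusted p = 5.11e-05). Iars2, the isoleucyl enzyme and the most abundant mitochondrial member, read 21.8, 19.6 and 21.6 FPKM in NULL, against 36.97, 35.2 and 37.5 FPKM in WT (log2 change -0.77, SE 0.0669, limma adjusted p = 5.92e-05). Mars2, the methionyl enzyme, read 7.72, 6.87 and 7.26 FPKM in NULL, against 11.4, 11.7 and 11.2 FPKM in WT (log2 change -0.59, SE 0.0649, limma adjusted p = 0.000157). These 4 genes had no overlap between the groups, and each was called lower in every leave-one-out fit. Under the common total the calls of Rars2, Iars2 and Mars2 were lost (limma adjusted p = 0.104, 0.142 and 0.293), while that of Yars2 held.

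The other mitochondrial genes that fell did so by less. Nars2, the asparaginyl enzyme, lies on chromosome 7 from 96951505 to 97064758 of GRCm38, 16827 bases before the start of Gab2 on the same strand. It read 3.66, 4.11 and 4.24 FPKM in NULL, against 5.27, 5.61 and 5.18 FPKM in WT (log2 change -0.35, SE 0.0732, limma adjusted p = 0.00396), without overlap. After an adjustment for GC content its call was lost (adjusted p = 0.0883), as it was under both common totals (0.719 and 0.657). Tars2, the threonyl enzyme, read 17.9, 16.4 and 17.1 FPKM in NULL, against 19.9, 20.6 and 21.6 FPKM in WT (log2 change -0.26, SE 0.0642, limma adjusted p = 0.00855), but its change was positive under both common totals (0.0093 and 0.079) and its call was lost under all 4 rescalings. Cars2, the cysteinyl enzyme, read 6.07, 5.02 and 4.55 FPKM in NULL, against 6.64, 6.69 and 6.52 FPKM in WT (log2 change -0.30, SE 0.0948, limma adjusted p = 0.0240), and its change was 0.00045 under the common total without small RNA genes. The call of Cars2 was lost without NULL B (adjusted p = 0.0731), NULL C (0.0802), WT A (0.0591) or WT B (0.0655), after median-of-ratios rescaling (0.155), under both common totals and with the GC adjustment (0.180).

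The 9 mitochondrial genes that did not pass the test had log2 changes from -0.34 to 0.041. With the GC adjustment Aars2, Sars2 and Vars2 were called lower (-0.33, -0.47 and -0.26, limma adjusted p-values 0.00217, 0.00132 and 0.00524), and Aars2 also under quantile normalization (adjusted p = 0.0318). Hars2, the histidyl enzyme, read 8.53, 9.63 and 9.78 FPKM in NULL, against 9.16, 9.73 and 9.69 FPKM in WT (log2 change -0.032, SE 0.0715, limma adjusted p = 0.718), and the groups lay on top of each other. Fars2, the single-chain phenylalanyl enzyme, read 8.43, 7.40 and 6.96 FPKM in NULL, against 7.03, 6.98 and 8.04 FPKM in WT (log2 change 0.041, SE 0.0883, limma adjusted p = 0.705), also with full overlap. Wars2, the tryptophanyl enzyme, had the lowest WT mean of the 36 genes and read 2.29, 2.27 and 2.39 FPKM in NULL, against 2.40, 2.54 and 2.17 FPKM in WT (log2 change -0.021, SE 0.0741, limma adjusted p = 0.818). Pars2, the prolyl enzyme, read 4.70, 4.70 and 4.40 FPKM in NULL, against 5.004, 5.41 and 5.54 FPKM in WT, without overlap but with an adjusted p of 0.0523 (limma). Its groups lay close, and the other 4 of these genes overlapped. Sars2 (seryl) read 5.21, 3.33 and 4.22 FPKM in NULL, against 4.72, 5.35 and 6.88 FPKM in WT (limma adjusted p = 0.0922). Ears2 (glutamyl) read 3.63, 3.15 and 2.29 FPKM in NULL, against 3.33, 3.88 and 4.05 FPKM in WT (limma adjusted p = 0.129). Aars2 (alanyl) read 2.71, 2.15 and 2.09 FPKM in NULL, against 2.36, 2.78 and 3.36 FPKM in WT, and Vars2 (valyl) 5.06, 3.85 and 3.88 FPKM in NULL, against 4.29, 4.91 and 5.56 FPKM in WT (limma adjusted p-values 0.159 and 0.233). In Sars2, Ears2, Aars2 and Vars2 NULL A was the highest NULL library and WT C the highest WT library.

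Lars2, the mitochondrial leucyl enzyme, varied more within the groups than between them. It read 9.13, 16.04 and 4.41 FPKM in NULL, against 6.41, 21.5 and 8.33 FPKM in WT, so that the B library was the highest of its group on both sides. The SD was 5.85 FPKM around a mean of 9.86 FPKM in NULL and 8.19 FPKM around a mean of 12.1 FPKM in WT (n = 3 each), and the fit gave a log2 change of -0.24 with an SE of 0.501 (limma adjusted p = 0.689). Over all tested genes the deviations of the B libraries from their group means were correlated across genes with r = 0.36, against 0.073 for the A libraries and 0.13 for the C libraries; their part in the Lars2 values was not tested.

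The ratio of a cytosolic gene to the mitochondrial gene for the same amino acid, taken within a library, does not change when a library is multiplied by a factor. Quantile normalization is not such a factor, and under it the differences of the log2 changes of Vars and Vars2, Wars and Wars2, Aars and Aars2, and Sars and Sars2 turned positive, at 0.17, 0.14, 0.21 and 0.23. The ratios below are of FPKM as deposited. Of 17 such ratios, 10 were lower in every NULL library than in any WT library (58.8% of the 17), 2 were higher in every NULL library (11.8%) and 5 overlapped. No such share was taken over ratios of other genes. Of single tested genes, 45.1% were without overlap with NULL lower and 26.0% with NULL higher. Eprs and Fars2 each enter more than once, always among the 10 lower ratios, so the 17 ratios are not independent. Each of the 12 that did not overlap had an exact two-sided permutation p of 0.1, the smallest that 3 against 3 libraries allow, and 0.14 after adjustment over the 17 ratios, so none could pass a threshold of 0.05. The widest difference was for Farsb over Fars2, with ratios of 3.28, 3.44 and 4.11 in NULL A, B and C, against 9.15, 8.72 and 7.73 in WT A, B and C (log2 difference -1.24). Hars over Hars2 gave 3.48, 2.49 and 2.83 in NULL, against 5.21, 5.07 and 5.38 in WT (log2 difference -0.85). Hars and Hars2 lie head to head on chromosome 18 and their annotated starts overlap by 198 bases on opposite strands of GRCm38, so reads in that stretch may be shared, since no source used here says whether counting used the strand. Eprs over Pars2 and over Ears2 differed by -0.79 and -0.66 on the log2 scale, Farsa over Fars2 by -0.58, Tars over Tars2 by -0.48 and Nars over Nars2 by -0.43.

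Rars over Rars2, Mars over Mars2 and Vars over Vars2 had smaller differences of -0.26, -0.23 and -0.15, still without overlap. For Vars over Vars2 the groups nearly touched, at 8.27 in NULL C and 8.28 in WT C. For tyrosine and isoleucine the mitochondrial gene fell by more than the cytosolic gene, and the ratio was higher in NULL. Yars over Yars2 was 2.45, 1.93 and 1.91 in NULL, against 1.44, 1.70 and 1.71 in WT (log2 difference 0.37). Iars over Iars2 was 1.28, 1.31 and 1.30 in NULL, against 1.15, 1.18 and 1.21 in WT (log2 difference 0.14). The ratios for alanine, cysteine, leucine, serine and tryptophan overlapped between the groups, with log2 differences of -0.13, -0.23, -0.60, -0.023 and -0.24. Sars over Sars2 turned to a positive difference of 0.065 without NULL A.

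**Figure D3:**
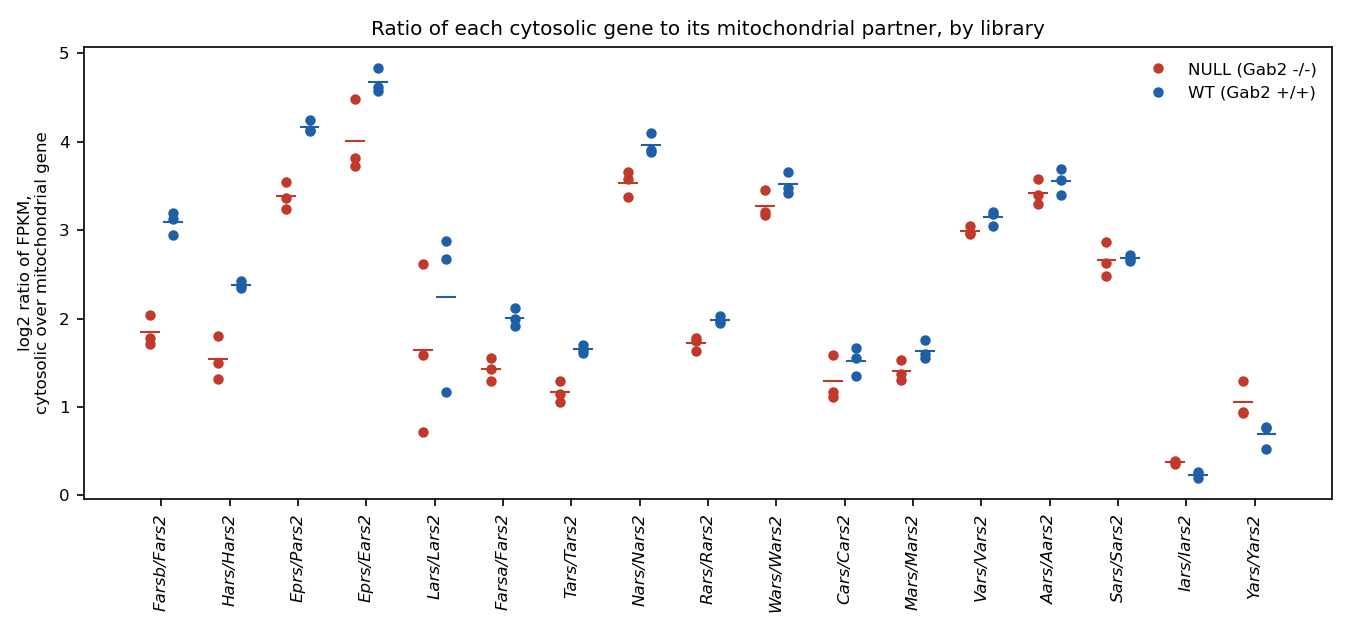
Log2 ratio of FPKM of each cytosolic gene over its mitochondrial partner in every library, NULL in red to the left of WT in blue, with a line at each group mean and pairs ordered by the difference. NULL lies below WT without overlap in 10 of the 17 ratios, led by Farsb/Fars2, and above WT in Iars/Iars2 and Yars/Yars2.

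The phenylalanyl enzyme of the cytosol is built from equal numbers of alpha and beta chains, encoded by Farsa and Farsb, and the transcripts of the chains fell unequally. The ratio of Farsa to Farsb was 0.825, 0.714 and 0.716 in NULL A, B and C, against 0.412, 0.499 and 0.516 in WT A, B and C. It averaged 0.752 ± 0.0634 in NULL and 0.476 ± 0.0556 in WT (SD, n = 3 each; exact two-sided permutation p = 0.1, the smallest possible), and every NULL library lay above every WT library. This ratio was chosen after its values were seen.

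Genes with a higher level changed more. Across the 36 genes, the log2 change was correlated with the log2 mean level over the 6 libraries with Pearson's r = -0.73 and Spearman's rho = -0.76, and across all 9916 tested genes with r = -0.25 and rho = -0.33. The 36 genes pool 2 compartments of unlike level, and r was -0.59 within the cytosolic and -0.58 within the mitochondrial genes. The genes share libraries and are not independent, so these values are descriptions. The 2905 genes whose mean level lay in the range of the cytosolic members (15.9 to 87.4 FPKM) were called lower in 59.8% of cases with a median log2 change of -0.34, against 20 of 20 and -0.82 for the cytosolic members on the deposited scale, where Wars reversed under 3 rescalings. The 6856 genes in the range of the mitochondrial members (2.34 to 28.8 FPKM) were called lower in 39.3% of cases with a median of -0.10, against 7 of 16 and -0.26 for the mitochondrial members. The share of the mitochondrial genes called lower was thus close to that of genes at their level.

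GC content of the longest annotated transcript moved with the change as well. Its correlation with the log2 change was r = 0.47 over the 36 genes, r = 0.71 over the 20 cytosolic genes and r = 0.43 over the 16 mitochondrial genes, against r = 0.16 over 9851 tested genes with a sequence, each across genes. Of the cytosolic genes, Dars, Eprs, Rars and Farsb, at 41.2%, 44.0%, 45.9% and 46.3% GC, were among those that fell most, and Vars and Aars, at 60.9% and 56.4%, among those that fell least. Other genes departed from this. Mars and Yars, at 53.4% and 52.8% GC, changed by -0.85 and -0.80, and the mitochondrial Hars2 and Wars2, at 47.7% and 46.5%, by -0.032 and -0.021. With the dependence on GC content removed in each library, 28 members were called lower (36.4% of all genes tested) and Wars2 higher (33.4%), all 20 cytosolic genes stayed lower, and their median log2 change was -0.66.

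**Figure D4:**
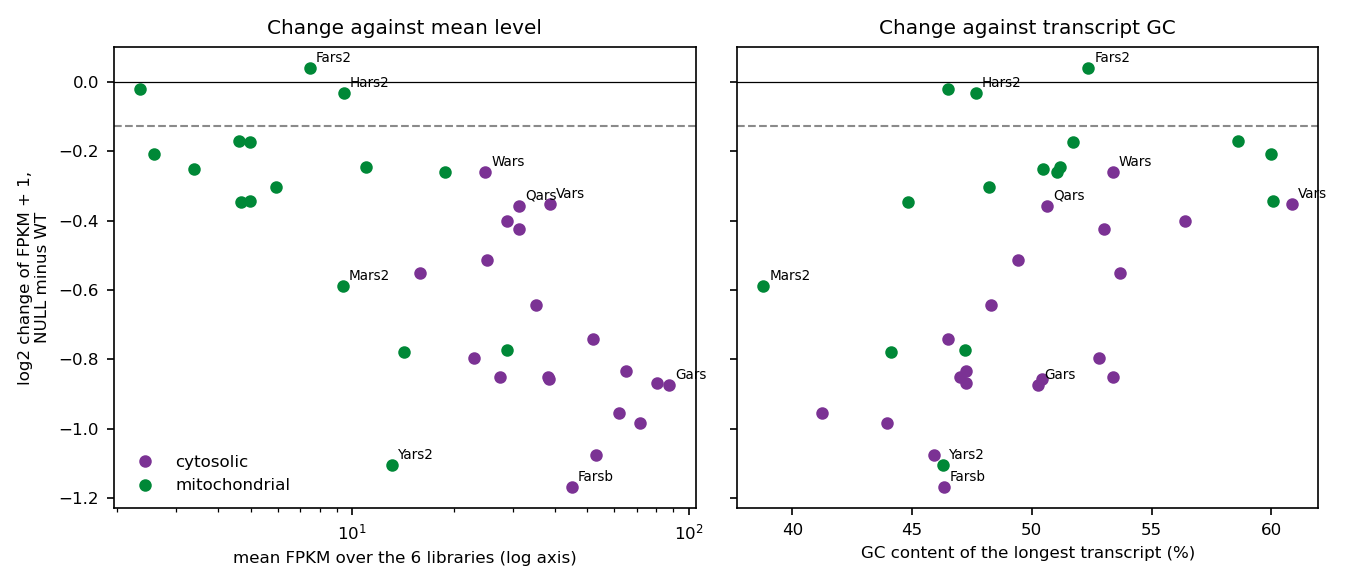
Log2 change of FPKM + 1 (NULL minus WT) of the 36 genes against their mean FPKM over the 6 libraries on a log axis (left) and against the GC content of the longest transcript (right), cytosolic genes in purple and mitochondrial genes in green, with the dashed line at the median of all tested genes. The change is more negative at higher levels (r = -0.73 on log2 levels) and less negative at higher GC content (r = 0.47).

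The size of these differences depended on how the libraries were scaled. The order of the medians was the same in each case. Median-of-ratios and common total rescaling apply a factor per library, which shifts all genes nearly alike and can hardly change that order. Only quantile normalization and the GC adjustment do more than this. The cytosolic median was -0.82 as deposited, -0.41 after quantile normalization, -0.66 after median-of-ratios rescaling and -0.54 and -0.47 after the common totals with and without small RNA genes. The mitochondrial median was -0.26, -0.29, -0.12, -0.022 and 0.035 in the same order, turning positive in the last. The median of all tested genes was -0.13, -0.030, 0.0098, 0.11 and 0.18. The cytosolic and mitochondrial medians were closest to each other after quantile normalization. Members called lower numbered 22 after quantile normalization (33.1% of all tested genes), 22 after median-of-ratios rescaling (32.7%), 5 after the common total (10.1%) and 17 when small RNA genes were left out (21.7%). Called higher were 0 members after quantile normalization (28.5% of all tested genes), median-of-ratios rescaling (31.7%) and the common total (20.4%), and Fars2 and Hars2 when small RNA genes were left out (42.7%). Dars, Eprs, Farsb, Rars and Yars2 were called lower under all 4, and 17 genes, 13 of them cytosolic, under the 3 other than the common total. Small RNA genes held 6.18% to 28.2% of the summed FPKM in NULL and 5.23% to 30.4% in WT.

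**Figure D5:**
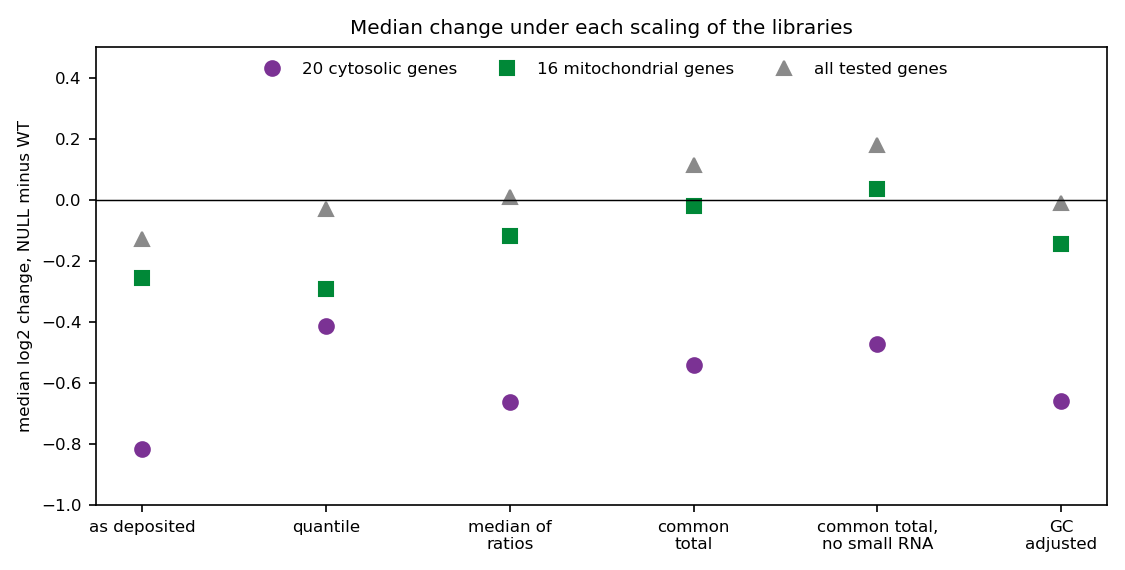
Median log2 change (NULL minus WT) of the 20 cytosolic genes (circles), the 16 mitochondrial genes (squares) and all tested genes (triangles) as deposited and under 5 other treatments of the libraries. The cytosolic median is the lowest of the 3 in each case, between -0.82 and -0.41, and the mitochondrial median turns positive under the common total without small RNA genes. Median-of-ratios and common total rescaling apply a factor per library, which can hardly change that order.

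Promoters were examined because the cytosolic genes moved together.
RefSeq windows of 250 bases before to 50 bases after the start (GRCm38.p6) were matched by symbol for 26 of the 36 genes, with no entry for Cars, Hars, Lars, Mars, Nars, Rars, Vars, Wars, Hars2 and Pars2.
The core of the C/EBP-ATF response element, TGATGNAA on either strand, was found in 5 of the 26 windows (Aars, Gars, Iars, Tars and Yars, all cytosolic), against 3.97% of the 32851 windows in the table.
The E-box CACGTG was found in 5 of 26 (Aars, Farsb, Iars, Tars and Ears2), against 7.15% of all windows. Members were counted by gene, whereas both shares count windows, of which a gene may have several, so the units are unlike.
A match describes letters, not binding, and Aars, Iars and Tars held both motifs.
Stretches upstream of the start are shown 5′ to 3′ on the strand of the gene, with the motif in capitals, for the cytosolic member with the largest change (Farsb, E-box 39 bases before the start, chr1:78488898-78488982, minus strand), for Iars (E-box 69 bases before, chr13:49682015-49682112, plus strand), and for 2 with an ATF core before the start, Gars (30 bases before, chr6:55037925-55038000, plus strand) and Tars (15 bases before, chr15:11399659-11399719, minus strand).
Farsb: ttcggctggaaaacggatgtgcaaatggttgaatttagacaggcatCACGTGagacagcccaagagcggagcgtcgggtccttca
Iars: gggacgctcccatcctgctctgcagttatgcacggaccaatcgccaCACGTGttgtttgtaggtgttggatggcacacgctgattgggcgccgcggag
Gars: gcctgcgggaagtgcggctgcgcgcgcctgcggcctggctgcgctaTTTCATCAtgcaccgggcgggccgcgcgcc
Tars: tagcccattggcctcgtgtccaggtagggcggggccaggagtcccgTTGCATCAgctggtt

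The 5 genes with the ATF core had log2 changes of -0.40 (Aars), -0.87 (Gars), -0.64 (Iars), -0.74 (Tars) and -0.80 (Yars), inside the range of the other cytosolic genes. For the response to uncharged tRNA 18 symbols were listed, of which 17 were found and 16 tested. Of these 16 genes 8 fell and 5 rose, against 42.0% and 23.3% of all tested genes. Their median log2 change was -0.27 and turned to 0.060 under the common total without small RNA genes. The counts became 3 lower and 6 higher under the common total, against 10.1% and 20.4% of all tested genes. They became 6 lower and 7 higher without small RNA genes, against 21.7% and 42.7%. Asns, asparagine synthetase, read 17.1, 13.4 and 17.6 FPKM in NULL, against 51.5, 50.6 and 65.8 FPKM in WT (log2 change -1.74, SE 0.134, limma adjusted p = 4.06e-05), and Psat1, of serine synthesis, read 34.7, 28.8 and 35.4 FPKM in NULL, against 89.8, 87.7 and 97.2 FPKM in WT (log2 change -1.45, SE 0.0930, limma adjusted p = 2.38e-05). Both stood clearly lower in every NULL library. The tetrahydrofolate enzyme Mthfd2 had a log2 change of -1.08 (limma adjusted p = 0.000159). Atf4 itself measured 106 ± 4.64 FPKM in NULL and 141 ± 15.4 FPKM in WT (SD, n = 3 each; log2 change -0.40, limma adjusted p = 0.00571) and changed sign under quantile normalization. Ddit3, which encodes the stress factor CHOP, rose, with 11.5 ± 0.407 FPKM in NULL and 5.02 ± 0.886 FPKM in WT (SD, n = 3 each; log2 change 1.07, limma adjusted p = 0.000122), as did Chac1, Sesn2, Atf5 and Vegfa, so the listed genes did not move in a single direction. Eif2ak4, the sensor kinase, did not pass the test at 6.69 ± 0.272 FPKM in NULL and 7.47 ± 0.393 FPKM in WT (SD, n = 3 each; limma adjusted p = 0.101).

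Other genes that serve tRNA were described from lists on the deposited scale, against 42.0% of all tested genes lower and 23.3% higher. Under the common total these shares were 10.1% and 20.4%, and without small RNA genes 21.7% and 42.7%. For further charging and editing genes 14 symbols were listed, of which 13 were found and 12 tested. Of these 12 genes 10 fell and 0 rose (median log2 change -0.55), against 3 lower under the common total. Of the 10, Sepsecs changed sign under the common total without small RNA genes. Among them Aarsd1, an alanyl-tRNA editing protein, had a log2 change of -1.23 and Tarsl2, a further threonyl enzyme, -1.04, with limma adjusted p-values of 0.000478 and 3.08e-05. Tarsl2 read 1.94, 1.93 and 2.13 FPKM in NULL, against 5.54, 5.09 and 4.87 FPKM in WT, without overlap between the groups. Mitochondria make glutaminyl-tRNA by amidating the product of Ears2, and of the 3 amidase genes Qrsl1 and Pet112 fell (log2 changes -0.45 and -0.57, limma adjusted p-values 0.00088 and 0.000657), while Gatc measured 7.97 ± 0.694 FPKM in NULL and 9.57 ± 1.02 FPKM in WT and was not called.

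Of 30 tested genes for tRNA maturation and export 25 fell and 1 rose (median -0.73), against 9 and 1 under the common total. In that setting 10.1% of all tested genes were called lower and 20.4% higher. Of the 26 called, Clp1 changed sign, under quantile normalization and both common totals. On the log2(FPKM + 1) scale the largest changes were in Nsun2, a tRNA cytosine methyltransferase, Mettl1, which makes 7-methylguanosine, and Thg1l, which adds a guanosine to histidine tRNA, at -1.33, -1.30 and -1.30 (limma adjusted p-values 1.18e-05, 3.91e-05 and 3.26e-05). Rpp40, a ribonuclease P subunit of low level, stood lower as a share of WT, at 27.1% against 39.1%, 36.4% and 37.96%. Adat3, a tRNA deaminase subunit, rose, with 1.61, 1.17 and 1.21 FPKM in NULL, against 0.396, 0.845 and 0.955 FPKM in WT (log2 change 0.44, SE 0.145, limma adjusted p = 0.0290). Of 21 genes for transcription of tRNA by RNA polymerase III, 16 fell and 2 rose (median -0.28), against 1 and 1 under the common total. The median turned to 0.039 and 7 of the called genes changed sign under the common total without small RNA genes. There 4 fell and 4 rose, against 21.7% and 42.7% of all tested genes. The subunit genes Polr3g, Polr3e and Polr3d changed most, at -0.998, -0.82 and -0.65 (limma adjusted p-values 4.72e-05, 6.83e-05 and 0.000453). Maf1, which represses the polymerase, and Polr3gl, the alternative subunit to Polr3g, were the members that rose, with log2 changes of 0.47 and 0.26 (limma adjusted p-values 0.000607 and 0.00682).

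All 4 cytosolic elongation factor genes listed for the delivery of charged tRNA fell, led by Eef1d at -0.95 and Eef1g at -0.91. The 4 mitochondrial translation factor genes listed beside them also fell, with Gfm1, which moves the ribosome along the message and does not carry tRNA to it, at -1.10 and Tsfm, the exchange factor of the tRNA carrier Tufm, at -0.96 (limma adjusted p-values 0.000184, 0.000157, 2.38e-05 and 0.000415). These mitochondrial genes, which also include the recycling factor Gfm2, had a median of -0.91, below that of the mitochondrial synthetases. None of these 8 changed sign under the 4 rescalings, though calls under the common total were 2 and 2, against 10.1% of all tested genes lower. Of 8 tested genes for amino acid uptake 5 fell and 2 rose, with no change of sign among these 7. Under the common total 2 were lower and 0 higher, against 10.1% and 20.4% of all tested genes. Slc7a5, the large neutral amino acid carrier, changed by -1.10, Slc1a4 by -0.98 and Slc7a1, the cationic carrier, by -0.73, whereas the glutamine carriers Slc1a5 and Slc38a2 rose by 0.35 and 0.35 (limma adjusted p-values 0.000101, 0.00139, 0.000285, 0.00983 and 0.00844).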

How the data were processed

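The authors deposited FPKM. The submitters' processing notes name the tools Bowtie and Cufflinks, with no version, and mm10 and GRCm38 as builds, and libraries were stranded and paired-end, per the labels' protocols. No source used here gives their annotation, filters or scaling.

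The table of the whole series matched the library tables in every value (0 differences). Of 23848 rows, 489 repeats of 256 symbols were left out, keeping the row with the highest mean. Genes were tested by limma (version 3.58.1, R version 4.3.3) after the transformation log2(FPKM + 1), a scale that understates changes of weak genes, for the 9916 genes averaging 1 FPKM or more. Variances were moderated with a trend, and two-sided p-values were adjusted by Benjamini-Hochberg over all of them and called at 0.05. Changes are NULL minus WT. Ratios of genes were compared with exact permutation tests. The fit was tested on simulated data. Depth estimates are approximate and support no counting interval. Positions, transcript lengths and GC content come from GENCODE vM21 (GRCm38).

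The members and lists were chosen with earlier results of these data known. All members are accounted for, and of the other lists the 3 genes with the largest absolute change are named; other named genes of those lists were chosen after their values were seen. Some single items are not reported here.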

Additional observations from a re-analysis of the deposited data

How the results depend on the processing

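The count of all genes called was 4168 lower and 2311 higher, 6479 in all, and fell to 3026 after the common total and 1838 when tested against a log2 change of 0.5. Of the 36 synthetase genes, 27 were called lower (20 cytosolic, 7 mitochondrial), against 42.0% of all tested genes. This became 5 (4 and 1) after the common total (10.1% of all tested genes). It became 17 (13 and 4) after the common total without small RNA genes (21.7%), and 14 (11 and 3) against a log2 change of 0.5 (12.5%). Called higher were 0 (23.3% of all tested genes), against 2 after the common total without small RNA genes (Hars2 and Fars2, 42.7%). With the GC adjustment, which was chosen after seeing the data, it was 1 (Wars2, 33.4%). Leaving out each library in turn gave 23 to 29 members lower, against 37.7% to 41.1% of all tested genes. Of the 27, 23 held in all 6 such fits. The letters A, B and C were not treated as pairs in the main fit. Same-letter deviations correlated by 0.073, 0.36 and 0.13, and each library correlated best with its own letter. Whether the letters mark shared handling was not tested. The replicate block gave 25 members lower (38.3% of all tested genes), without Vars and Wars, and 5844 genes in all.

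Signs turned for these genes. Under quantile normalization Hars2 was 0.057 and Wars 0.012. Under quantile normalization, added after seeing the data for ratios, the differences turned to 0.21 (Aars to Aars2), 0.23 (Sars to Sars2), 0.17 (Vars to Vars2) and 0.14 (Wars to Wars2). Under median-of-ratios rescaling Hars2 was 0.11 and Wars2 0.089. Under the common total the values were 0.22 (Hars2), 0.00047 (Lars2), 0.059 (Pars2), 0.0093 (Tars2), 0.060 (Vars2), 0.012 (Wars) and 0.17 (Wars2). Without small RNA genes in that total they were 0.049 (Aars2), 0.00045 (Cars2), 0.021 (Ears2), 0.29 (Hars2), 0.075 (Lars2), 0.12 (Pars2), 0.079 (Tars2), 0.12 (Vars2), 0.082 (Wars) and 0.23 (Wars2). With the GC adjustment Hars2 was 0.14 and Wars2 0.17. Leave-one-out ranges that crossed 0 were -0.028 to 0.099 (Fars2), -0.064 to 0.024 (Hars2), -0.64 to 0.23 (Lars2), -0.065 to 0.015 (Wars2) and -0.12 to 0.065 (the log2 ratio of Sars to Sars2). The cause was not tested. Rescaling of the lists other than the synthetases was also chosen after seeing the data. Approximate depth was lowest in WT B, and FPKM give no counting error.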
